A study of Mus musculus with 19 samples.

Results

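The genes described here encode channels and transporters that move Mg2+ across the plasma membrane or across membranes inside the cell. They are Trpm6, Trpm7, Slc41a1, Slc41a2, Slc41a3, Cnnm2, Cnnm3, Cnnm4, Magt1 and Mrs2. They were picked by gene symbol, and all 10 of them were found among the 24237 genes of the expression table. Their mRNA was measured in epididymal white adipose tissue (eWAT) of male C57BL6/J mice that were 9 to 10 weeks old when they began 17 weeks on the diets. NormMg-LFD (n = 4) held 0.21% (wt/wt) MgO with 10% of the energy from fat, and LowMg-LFD (n = 5) held 0.03% MgO with the same fat. NormMg-HFD (n = 5) held 0.21% MgO and LowMg-HFD (n = 5) held 0.03% MgO, each with 60% of the energy from fat, which was palm oil. All mice were of the same wild-type strain, each mouse gave 1 library, and the question put to the tissue was how low dietary Mg2+ acts with and without a high-fat diet.

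Cells hold Mg2+ mostly bound to ATP and other ligands, and keep the free ion within narrow limits by balancing entry, extrusion and storage. TRPM6 and TRPM7 are Mg2+-permeable channels fused to a kinase, TRPM6 being known from the kidney and the colon and TRPM7 from nearly all tissues. The SLC41 proteins are Na+/Mg2+ exchangers or related carriers, of which SLC41A3 has been placed in mitochondria. The CNNM proteins (cyclin M) sit in the plasma membrane and act in Mg2+ efflux or its control, CNNM2 being known from the kidney and CNNM4 from the gut and teeth. MAGT1 is a subunit of the oligosaccharyltransferase of the endoplasmic reticulum and has been linked to Mg2+ uptake, while MRS2 is the Mg2+ channel of the inner mitochondrial membrane. These genes are not particular to fat cells, so a level in whole eWAT is a sum over adipocytes and the other cells of the tissue, and fewer cells of a type cannot be told apart from less RNA per cell.

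Levels are given as FPKM, fragments per kilobase of transcript scaled to the size of the library, which are corrected for transcript length and can be compared between genes. The libraries held 12986441 to 13027028 reads, of which 86.12% to 90.41% were mapped. The 8 adipocyte marker genes had a summed FPKM of 11370 to 20170 in the 19 mice, and none of them was at 0 in all mice of a group. A pair of mice had the highest markers of other organs. NormMg-LFD replicate 4 stood apart by its adipocyte markers, which summed to 11368 FPKM against 16234 to 17119 FPKM in the rest of its group. It also had 14950 genes above 1 FPKM, the most after LowMg-HFD replicate 4 (15700). The 12 exocrine pancreas markers summed to 1775 FPKM in NormMg-LFD replicate 3, against 17.3 to 22.7 in the other NormMg-LFD mice and 13.2 to 52.9 in the other groups. The 7 epididymis and testis markers summed to 2100 FPKM in LowMg-HFD replicate 4 and to at most 477.6 in any other mouse. The value of 477.6 was that of NormMg-LFD replicate 5, and NormMg-LFD replicate 4 was at 201.5, against at most 13.67 in NormMg-HFD mice. Both of these NormMg-LFD mice stayed in when the pair was left out. The methods of the study left out a LowMg-HFD mouse for pancreatic tissue without naming it, and in these files no LowMg-HFD mouse had a pancreas sum above 44.6 FPKM. All 19 mice were kept. The results below are also given without the pair of mice with markers of other organs where they touch the outcome, and the calls of members were the same in number without NormMg-LFD replicate 4.

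Slc41a2 and Magt1 were the members that passed the test in a comparison of diet groups. Their promoters are shown because they carry the called differences: the pair was higher in NormMg-HFD than in NormMg-LFD mice, and lower in LowMg-HFD mice than in NormMg-HFD mice. Slc41a2 lies on chromosome 10 (GRCm38, chr10:83230848-83337882, minus strand) and Magt1 on the X chromosome (chrX:105968084-106011906, minus strand). The stretches below end at the base before the first annotated base of each gene and are taken from RefSeq promoter windows on GRCm38, read 5′ to 3′ on the strand of the gene. The first covers chr10:83337883-83338067 and the second chrX:106011907-106012052. Capitals mark CCAAT boxes on either strand, the element bound by nuclear factor Y.
Slc41a2: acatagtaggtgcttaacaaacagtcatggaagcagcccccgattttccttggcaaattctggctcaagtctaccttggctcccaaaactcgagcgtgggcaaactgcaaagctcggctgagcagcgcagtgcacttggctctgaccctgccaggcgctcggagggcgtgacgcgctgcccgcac
Magt1: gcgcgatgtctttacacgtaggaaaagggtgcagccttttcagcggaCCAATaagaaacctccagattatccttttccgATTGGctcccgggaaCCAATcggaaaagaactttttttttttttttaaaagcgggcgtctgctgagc
The 146 bases before Magt1 held 3 CCAAT matches, beginning 99, 67 and 52 bases before the gene, and the 185 bases before Slc41a2 held none. These distances run from the GENCODE M21 start of the gene. The RefSeq windows hold 250 bases before their own start, which therefore lies inside the gene, and distances from that start are longer. Promoter windows of 300 bases were matched by symbol for 9 of the 10 members, all but Mrs2. CCAAT was found in 4 of these 9 windows (Cnnm3, Slc41a1, Cnnm2, Magt1) and in 37.4% of all 32851 windows. The GC box GGGCGG was found in 4 of 9 (Cnnm4, Cnnm3, Slc41a1, Cnnm2) and in 35.7% of all, the E-box CACGTG in 3 of 9 (Trpm7, Slc41a3, Magt1) and in 7.15% of all, GAGGAA (the core of ETS sites such as that of PU.1) in 1 of 9 (Cnnm2) and in 28.3% of all, and TATAAA in 0 of 9 and in 13.6% of all. Each motif was searched on both strands, and no motif contains another. The Slc41a2 window held none of the 5 motifs. Its GC content was 61.7% with 24 CpG, and that of the Magt1 window was 57% with 26 CpG, against medians of 52.7% and 7 over all windows.

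The other members lie elsewhere in the genome, except for Cnnm4 (chr1:36471620-36508764, plus strand) and Cnnm3 (chr1:36511867-36528237, plus strand), which follow each other with 3102 bases between them. Slc41a1 is at chr1:131827493-131848865 (plus), Trpm7 at chr2:126791565-126876230 (minus), Slc41a3 at chr6:90604725-90646412 (plus), Cnnm2 at chr19:46761596-46880192 (plus) and Trpm6 at chr19:18749983-18892511 (plus), all as in GENCODE M21 on GRCm38. Mrs2 is given in the table as chr13:24992483-25020379 (minus), where its end shares 19 bases with Gpld1 on the other strand. In GENCODE M21 the gene begins at base 24987483, further inside Gpld1. Whether strand was used in counting is not given in the sources used here. The table sums 1 (Trpm6, Mrs2) to 11 (Trpm7) annotated transcripts per member, so a change of isoform within a gene cannot be seen in these values.

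In this tissue the members spanned a wide range of levels. Cnnm2 was highest, with a mean of 19.2 FPKM over the 19 mice (range 12.98 to 22.55), followed by Trpm7 with 18.9 FPKM (13.1 to 24.54). Magt1 averaged 16.2 FPKM, Cnnm3 13.1 FPKM, Mrs2 10.9 FPKM, Slc41a1 8.02 FPKM, Slc41a3 5.44 FPKM, Slc41a2 4.55 FPKM and Cnnm4 1.49 FPKM. Trpm6 was the lowest of the members, with 0.211 FPKM on average, and ranked 17499 by mean FPKM among the 24237 genes. Neighbours in this order, such as Cnnm2 and Trpm7 or Slc41a3 and Slc41a2, overlapped in their ranges over mice. Within a single diet group the order could differ, since Slc41a2 (8.35 FPKM) was above Slc41a1 (7.69 FPKM) and Slc41a3 (6.57 FPKM) by mean in NormMg-HFD mice and below both in the 3 other groups.

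**Figure D1:**
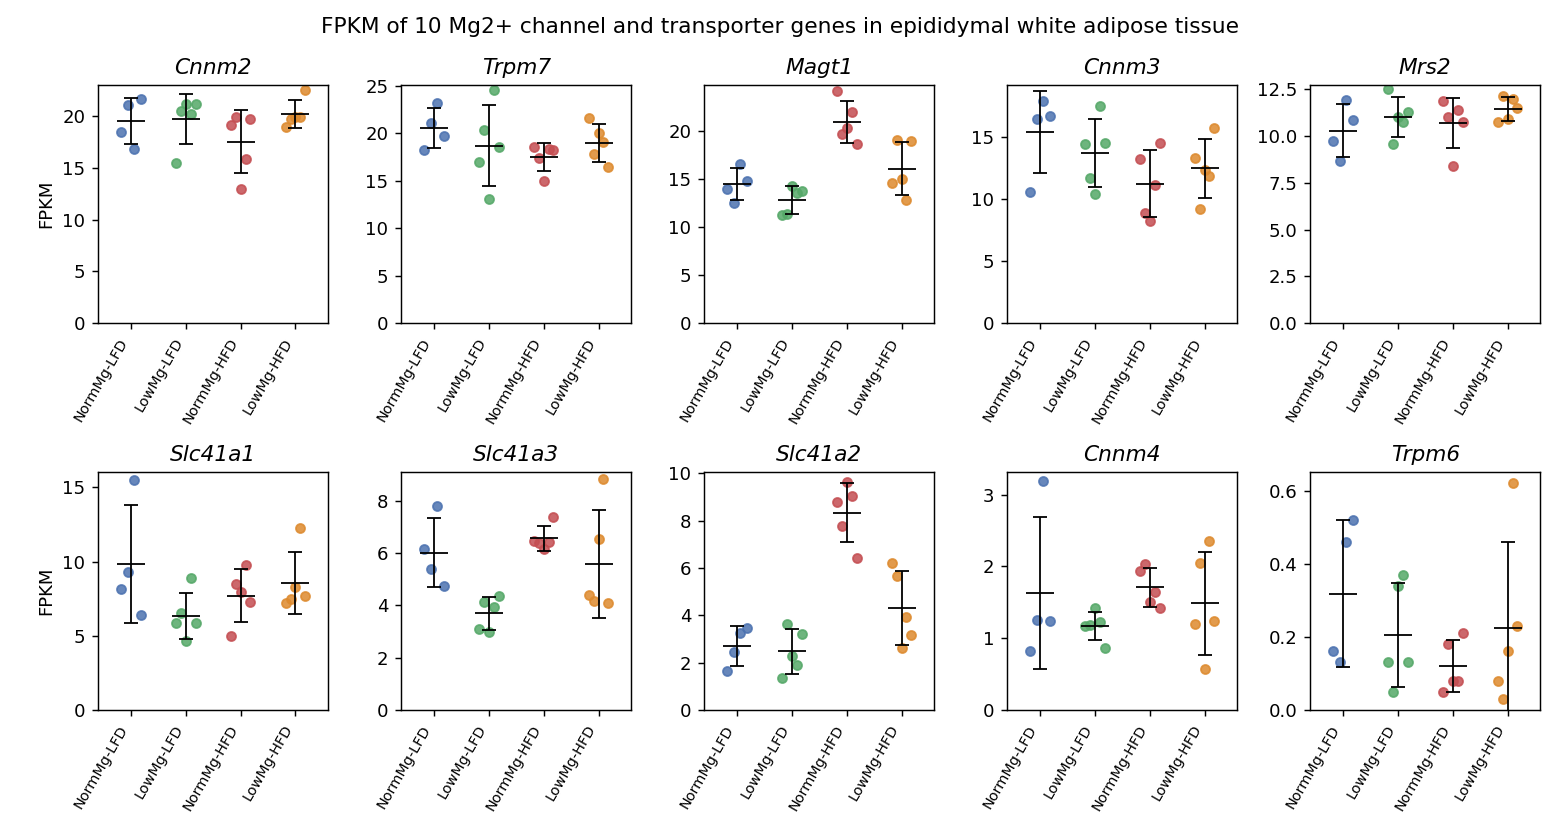
FPKM (y axis, from 0, own scale in each panel) of the 10 genes by diet group (x axis). Each point is a mouse, the wide line is the group mean and the bars are ± 1 SD (n = 4 for NormMg-LFD, n = 5 for the others). Slc41a2 and Magt1 are highest in the NormMg-HFD mice, with Slc41a2 at 6.44 to 9.66 FPKM there and at most 6.2 FPKM elsewhere, while Cnnm2, Trpm7 and Mrs2 sit at like heights in all groups.

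For the tests, 1 was added to each FPKM, log2 was taken and all genes were fitted together in limma, with p values adjusted over the 13454 genes tested and a threshold of 0.05. Differences are therefore on the log2(FPKM + 1) scale, which understates the change of low genes. A gene was tested when its mean FPKM was above 1 in a diet group and its FPKM was above 1 in at least 4 mice of that group. Of the members, 9 of 10 met this, and Trpm6 did not.

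The first comparison asks what a high-fat diet did to these genes when dietary Mg2+ was normal. Of the 9 tested members, 2 were higher in NormMg-HFD than in NormMg-LFD mice and 0 were lower. Over all genes tested 30.0% passed in either direction and 19.2% were higher, so the members' count was near that of the table as a whole, and 2 members were also called without both mice with other-organ markers. The median difference of the 9 members was 0.05 against 0.03 over all genes tested.

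Slc41a2, a carrier of the SLC41 family, showed the largest difference among the members. Its values in the NormMg-LFD mice were 1.65, 2.43, 3.24 and 3.48 FPKM, and in the NormMg-HFD mice 8.8, 7.78, 9.66, 9.06 and 6.44 FPKM. All 5 NormMg-HFD mice were above all 4 NormMg-LFD mice. The means were 8.35 ± 1.26 (SD, n = 5) and 2.7 ± 0.832 (SD, n = 4) FPKM, a ratio of 3.09. The difference on the log2(FPKM + 1) scale was 1.36 with a standard error of 0.23 (limma, adjusted p = 0.0002), and it was 1.33 (limma, adjusted p = 0.00109) without NormMg-LFD replicate 3.

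Magt1, the oligosaccharyltransferase subunit, rose less. It was at 14.02, 12.56, 16.61 and 14.86 FPKM in the NormMg-LFD mice and at 24.19, 19.69, 20.32, 21.98 and 18.69 FPKM in the NormMg-HFD mice, again without overlap. The group means were 14.5 ± 1.69 (SD, n = 4) and 21 ± 2.16 (SD, n = 5) FPKM, a ratio of 1.45. The difference was 0.50 with a standard error of 0.12 (limma, adjusted p = 0.00418), and without NormMg-LFD replicate 3 it was 0.44 (limma, adjusted p = 0.0208). These were the 2 members whose groups did not overlap, both with higher values in NormMg-HFD, which was the case for 17.2% of all genes tested.

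Cnnm3, a cyclin M protein, did not pass. Its values were 10.55, 16.42, 17.85 and 16.66 FPKM in NormMg-LFD mice and 13.22, 8.9, 8.25, 11.15 and 14.51 FPKM in NormMg-HFD mice. The groups overlapped through NormMg-LFD replicate 2, the lowest of its group, and 2 of the 5 NormMg-HFD mice were below all NormMg-LFD mice. The difference was -0.43 with a standard error of 0.19 (limma, adjusted p = 0.0963). Cnnm3 passed without NormMg-LFD replicate 2 (-0.59, limma, adjusted p = 0.0279), without NormMg-HFD replicate 5 (-0.52, limma, adjusted p = 0.0489), and when each mouse was centred on its median (-0.50, limma, adjusted p = 0.0479) or quantile normalised (-0.51, limma, adjusted p = 0.0423). It also passed when replicate number was fitted as a block (limma, adjusted p = 0.0177).

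The remaining tested members had intervals that included 0. On the log2(FPKM + 1) scale the differences were -0.22 for Trpm7 (95% confidence interval -0.50 to 0.06), -0.28 for Slc41a1 (-0.74 to 0.18, and -0.0547 without NormMg-LFD replicate 4 or -0.15 without NormMg-HFD replicate 1), 0.12 for Slc41a3 (-0.26 to 0.51), -0.16 for Cnnm2 (-0.42 to 0.10), 0.11 for Cnnm4 (-0.36 to 0.59) and 0.05 for Mrs2 (-0.18 to 0.28). The interval of Mrs2, the mitochondrial channel, was the narrowest of these and reached 0.28, while that of Cnnm4, a low gene, was among the widest and reached 0.59. Mrs2 turned to -0.02 under median centring and without NormMg-LFD replicate 3. Leaving out single mice gave 0.0345 to 0.239 for Slc41a3 and -0.221 to -0.0582 for Cnnm2, and neither passed.

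**Figure D2:**
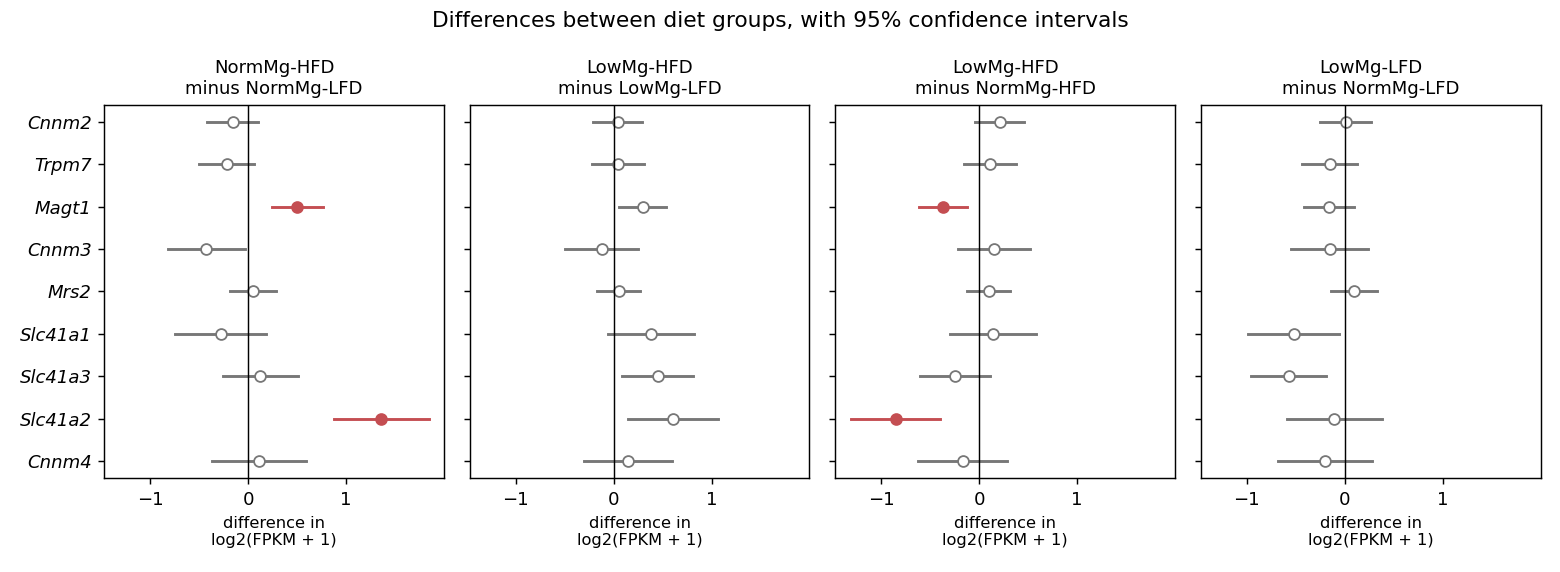
Differences in log2(FPKM + 1) (x axis) of the 9 tested genes (y axis, ordered by mean level) in 4 comparisons of diet groups. Points are limma estimates, lines are 95% confidence intervals, and filled red symbols mark an adjusted p under 0.05. These are Slc41a2 at 1.36 and Magt1 at 0.50 for fat on normal Mg2+, and Slc41a2 at -0.85 and Magt1 at -0.37 for low Mg2+ on the HFD.

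The second comparison sets low against normal dietary Mg2+ on the HFD. By the study's report, LowMg-HFD mice also had a lower body weight and less eWAT than NormMg-HFD mice. The study names as a limitation that changes are hard to assign to weight or to Mg2+ deficiency, and they cannot be told apart here. This comparison shares its NormMg-HFD mice with the first, so the pair of comparisons is not independent. With low Mg2+, 2 of the 9 tested members had lower and 0 had higher levels in HFD-fed mice, and 1 (Slc41a2) was lower when both mice with other-organ markers were left out. Over all genes tested 12.5% (1679 genes) passed in either direction and 8.95% were lower. The 1679 fell to 961 without NormMg-HFD replicate 3, to 1119 without NormMg-HFD replicate 1, to 1044 without LowMg-HFD replicate 3 and to 1083 without LowMg-HFD replicate 5. The members' median difference was 0.10 against -0.02 over all genes tested.

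Slc41a2 was again the member with the largest difference. The LowMg-HFD mice had 6.2, 5.67, 2.6, 3.94 and 3.18 FPKM, all below the lowest NormMg-HFD mouse at 6.44 FPKM. A separation in this direction was found for 7.12% of all genes tested, and among the members for Slc41a2 alone. The LowMg-HFD mean was 4.32 ± 1.56 (SD, n = 5) FPKM, 0.517 times that of NormMg-HFD mice. The difference was -0.85 with a standard error of 0.22 (limma, adjusted p = 0.015). It was -0.84 (limma, adjusted p = 0.0279) without LowMg-HFD replicate 4 and -0.73 (limma, adjusted p = 0.0509) without LowMg-HFD replicate 3, the only mouse whose removal took the value past the threshold. The LowMg-HFD mice were spread over a wider range than the NormMg-HFD mice, with replicates 1 and 2 close to the NormMg-HFD range and the other 3 mice within or close to the range of the LFD groups.

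Magt1 was at 14.64, 19.07, 15.03, 12.85 and 18.96 FPKM in LowMg-HFD mice, so that 3 mice were below all NormMg-HFD mice and 2 lay within their range. The mean was 16.1 ± 2.78 (SD, n = 5) FPKM, 0.768 times that of NormMg-HFD mice, and the difference was -0.37 with a standard error of 0.12 (limma, adjusted p = 0.0421). This value lay close to the threshold. It did not pass without LowMg-HFD replicate 4 (-0.30, limma, adjusted p = 0.0986), which is the mouse with testis markers, and across the 19 fits with a single mouse left out it passed in 10, with adjusted p values of 0.0214 to 0.112 in limma. Of the 10 other alternatives it passed in 3, and it was lost with no filter, on the TPM scale, by median centring, by quantile normalization, with the replicate block, with only the groups compared and without both mice with other-organ markers.

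No other member passed in this comparison. The differences were 0.21 for Cnnm2 (95% confidence interval -0.04 to 0.45), 0.11 for Trpm7 (-0.16 to 0.37), 0.15 for Cnnm3 (-0.22 to 0.52), 0.14 for Slc41a1 (-0.30 to 0.58), 0.10 for Mrs2 (-0.12 to 0.32), -0.17 for Cnnm4 (-0.62 to 0.28) and -0.25 for Slc41a3 (-0.61 to 0.11). The value of Slc41a1 became 0.0121 without NormMg-HFD replicate 1 and 0.0186 without LowMg-HFD replicate 4. That of Cnnm4 became -0.0171 without LowMg-HFD replicate 3, and -0.29 and -0.26 without LowMg-HFD replicates 4 and 2. Leaving out single mice gave 0.0219 to 0.135 for Mrs2 and 0.0585 to 0.247 for Cnnm3. The ranges were 0.110 to 0.256 for Cnnm2 and 0.0556 to 0.154 for Trpm7. Among the SLC41 genes, Slc41a3 was at 6.16 to 7.4 FPKM in all 5 NormMg-HFD mice but at 4.39, 4.16, 6.54, 8.83 and 4.08 FPKM in LowMg-HFD mice. The highest of these, 8.83 FPKM, was replicate 4, and without it the difference of Slc41a3 was -0.40 (limma, adjusted p = 0.0873).

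On the LFD, where the only dietary difference was Mg2+, 0 of 9 members passed. The same held for the table, with 0% of the genes tested past the threshold in limma and 6.32% (850 genes) at an unadjusted p under 0.05. Among the members 2 of 9 were under this unadjusted level, Slc41a3 and Slc41a1. The median difference of the members was -0.15 against -0.07 over all genes tested.

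Slc41a3, placed in mitochondria, was at 6.15, 5.4, 7.79 and 4.75 FPKM in NormMg-LFD mice and at 3.1, 4.13, 2.97, 3.94 and 4.35 FPKM in LowMg-LFD mice. All LowMg-LFD mice were below all NormMg-LFD mice, a separation in this direction that 1.29% of all genes tested showed and, of the members, Slc41a3 alone. The means were 3.7 ± 0.624 (SD, n = 5) and 6.02 ± 1.31 (SD, n = 4) FPKM, a ratio of 0.614. The difference of -0.57 (95% confidence interval -0.95 to -0.19) did not survive adjustment (limma, adjusted p = 0.765), and the adjusted p ranged from 0.378 to 0.999 over the alternatives.

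Slc41a1, the Na+/Mg2+ exchanger of the plasma membrane, was at 8.16, 9.28, 15.51 and 6.39 FPKM in NormMg-LFD mice and at 5.84, 6.55, 4.65, 8.86 and 5.83 FPKM in LowMg-LFD mice. The groups overlapped. The difference was -0.52 (95% confidence interval -0.98 to -0.06, limma, adjusted p = 0.789), and it moved between -0.68 and -0.30 when single mice were left out. The same NormMg-LFD mouse, replicate 4, held the highest value of its group for Slc41a1, Slc41a3, Cnnm4 (3.19 FPKM), Cnnm3, Trpm7, Magt1 and Mrs2. It is the mouse with the low adipocyte marker sum of 11368 FPKM, and its epididymis and testis markers summed to 201.5 FPKM. The part of either in these values was not tested. Without this mouse the differences were -0.30 for Slc41a1 and -0.46 for Slc41a3.

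The 7 other tested members had intervals that included 0. Slc41a2, called in both HFD comparisons above, differed by -0.10 (95% confidence interval -0.59 to 0.38), with 1.33, 3.65, 2.3, 1.9 and 3.2 FPKM in the LowMg-LFD mice. Magt1 differed by -0.16 (-0.42 to 0.09), with 11.26, 11.34, 14.31, 13.62 and 13.78 FPKM. Cnnm2 was at 19.5 ± 2.25 (SD, n = 4) FPKM in NormMg-LFD and 19.7 ± 2.42 (SD, n = 5) FPKM in LowMg-LFD mice, a difference of 0.01 (-0.25 to 0.27). Trpm7 (-0.15), Cnnm3 (-0.15), Cnnm4 (-0.20) and Mrs2 (0.10) did not pass either. Leaving out single mice gave -0.252 to -0.0376 for Trpm7, -0.311 to -0.0665 for Cnnm3 and 0.0244 to 0.164 for Mrs2.

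Fat on low Mg2+, the comparison of LowMg-HFD with LowMg-LFD mice, gave 0 of 9 members past the threshold, where 10.4% of all genes tested passed in either direction and 8.24% were higher. The 10.4% stand for 1405 genes, which became 802 without LowMg-LFD replicate 1, 869 without LowMg-HFD replicate 1, 762 without LowMg-HFD replicate 2 and 572 with only the groups compared. At an unadjusted p under 0.05 there were 3 of 9 members (Slc41a2, Slc41a3, Magt1) and 24.6% of all genes. All genes tested had a median difference of 0.10 in this comparison, which became -0.04 when mice were centred on their medians, and the members' median was 0.15. Slc41a2 differed by 0.61 (95% confidence interval 0.15 to 1.06, limma, adjusted p = 0.084), 3 of 5 LowMg-HFD mice being above all LowMg-LFD mice. It passed without LowMg-HFD replicate 3 (0.74, limma, adjusted p = 0.0369). Magt1 differed by 0.29 (0.05 to 0.54, limma, adjusted p = 0.114). It passed without LowMg-HFD replicate 4 (0.37, limma, adjusted p = 0.0436), and was the 1 member called without both mice with other-organ markers. Slc41a3 differed by 0.45 (0.09 to 0.81, limma, adjusted p = 0.105), or 0.29 without replicate 4 (limma, adjusted p = 0.232). The differences of Trpm7 (0.04), Cnnm2 (0.04), Mrs2 (0.05), Cnnm4 (0.15), Cnnm3 (-0.12) and Slc41a1 (0.38) did not pass, and those of Trpm7, Cnnm2 and Mrs2 fell below 0 under median centring.

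Whether the effect of Mg2+ differed between the HFD and the LFD was tested by the interaction term, in which 0 of 9 members and 0.357% of all genes tested (48 genes) passed, against 17.9% of genes at an unadjusted p under 0.05. The count of 48 genes was unstable, ranging from 0 to 451 when single mice were left out. At that unadjusted level there were 2 members, Slc41a1 and Slc41a2. The interaction was -0.75 for Slc41a2 (95% confidence interval -1.41 to -0.08, limma, adjusted p = 0.224), 0.66 for Slc41a1 (0.02 to 1.30, limma, adjusted p = 0.26) and -0.21 for Magt1 (-0.56 to 0.14, limma, adjusted p = 0.544). The fall of Slc41a2 with low Mg2+ on the HFD was therefore not shown to differ from its change on the LFD.

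Over the 4 groups, Slc41a2 was ordered NormMg-HFD (8.35 FPKM), LowMg-HFD (4.32 FPKM), NormMg-LFD (2.7 FPKM) and LowMg-LFD (2.48 FPKM). A test of any difference over the 4 groups passed for Slc41a2 (limma F test, adjusted p = 0.000137), Magt1 (adjusted p = 0.0012) and Slc41a3 (adjusted p = 0.0185), the last of which passed in no single comparison. The share of all genes that passed this F test is not given here, so these passes cannot be set against the table as a whole. For Slc41a2 the first and second group differed, the test between the LFD groups did not pass, and the ranges of LowMg-HFD and NormMg-LFD overlapped. Magt1 followed the same order with 21, 16.1, 14.5 and 12.9 FPKM, its LowMg-HFD values overlapping those of NormMg-LFD mice. The pair had a Pearson correlation of 0.791 on the log2(FPKM + 1) scale over the 19 mice, and of 0.22 once each group's mean was removed. Slc41a1 and Slc41a3 correlated at 0.646, and at 0.642 within groups, while Trpm7 and Cnnm3 correlated at 0.611 and 0.551. These are descriptions over 19 libraries that share their diet groups and their makeup of cells.

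Trpm6 was detected at low values in every mouse. It was listed at 0.16, 0.13, 0.46 and 0.52 FPKM in NormMg-LFD mice, at 0.13, 0.05, 0.34, 0.37 and 0.13 FPKM in LowMg-LFD mice, at 0.05, 0.18, 0.08, 0.08 and 0.21 FPKM in NormMg-HFD mice and at 0.08, 0.03, 0.16, 0.62 and 0.23 FPKM in LowMg-HFD mice. Low FPKM values of genes with 1 transcript fell near whole multiples of a step in each library, with 70.7% to 80.9% of them within 0.15 of a whole step. If 1 step is 1 read, Trpm6 (1 transcript of 6509 bases) rested on about 1 to 23 reads per library. These steps put 49.1% to 50.1% of the mapped reads behind the FPKM, and if FPKM were instead scaled to all mapped reads the number of reads would be higher in proportion. In a fit of all 24237 genes none of its comparisons passed (differences of -0.22 to 0.11 between groups, limma, lowest adjusted p = 0.293). The largest of the LowMg-HFD values, 0.62 FPKM, belonged to replicate 4, the mouse with testis markers.

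Macrophage genes moved with the called members. The 9 measured macrophage markers (of 10 listed, among them Adgre1, Cd68, Csf1r, Itgax and Trem2) summed to 480.3 to 584 FPKM in NormMg-LFD, 367.2 to 694.1 FPKM in LowMg-LFD, 1830 to 2793 FPKM in NormMg-HFD and 595.5 to 1622 FPKM in LowMg-HFD mice. None was at 0 in all mice of a group. The sum leans on Lyz2, at a mean of 1392 FPKM in NormMg-HFD and 370.2 FPKM in NormMg-LFD mice, beside median sums of 2250 and 549.5 FPKM. Of these 9 genes, 8 were higher in NormMg-HFD than in NormMg-LFD mice, and 8 fell with low Mg2+ on the HFD, where 19.2% and 8.95% of all genes tested did. The exception in both was Cd163, named after its values were seen, at 25.7 ± 4.09 (SD, n = 4) FPKM in NormMg-LFD, 17.8 ± 6.26 (SD, n = 5) FPKM in NormMg-HFD and 20.8 ± 4.34 (SD, n = 5) FPKM in LowMg-HFD mice. The markers' summed level correlated with Slc41a2 at 0.925 over the 19 mice (0.627 within groups) and with Magt1 at 0.862 (0.482 within groups), all on a log2 scale, against -0.465 to 0.379 for the 7 other tested members. The 5 stromal markers summed to 1098 to 1247 FPKM in NormMg-LFD, 1511 to 2057 FPKM in NormMg-HFD and 1028 to 1246 FPKM in LowMg-HFD mice. Of these, 2 (the collagens Col1a1 and Col3a1) passed in both HFD comparisons, while Pdgfra, Dcn and Dpt did not. The stromal sum correlated with Slc41a2 at 0.858 (0.494 within groups) and with Magt1 at 0.844 (0.456 within groups), not far below the macrophage values. Of 8 adipocyte markers, 5 were lower and 1 (Lep) was higher in NormMg-HFD than in NormMg-LFD mice, where 10.8% of all genes tested were lower, and 4 rose with low Mg2+ on the HFD, where 3.53% of all genes did. The 5 endothelial markers summed to 175.1 to 243.7 FPKM and the 7 lymphocyte markers to 4.9 to 35.13 FPKM over all mice. The 7 epididymis and testis markers had summed levels with medians of 116.4 FPKM (7.28 to 477.6) in NormMg-LFD, 28.07 FPKM (10.62 to 125.2) in LowMg-LFD, 2.74 FPKM (0.78 to 13.67) in NormMg-HFD and 7.3 FPKM (1.69 to 2100) in LowMg-HFD mice. Of these markers, 1 was at 0 in all NormMg-LFD mice, 2 in all NormMg-HFD mice and 1 in all LowMg-HFD mice. Their sum correlated with Slc41a2 at -0.478 (-0.04 within groups) and with Magt1 at -0.545 (-0.283 within groups). The part of these cells and tissues in the differences of Slc41a2 and Magt1 was not tested.

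**Figure D3:**
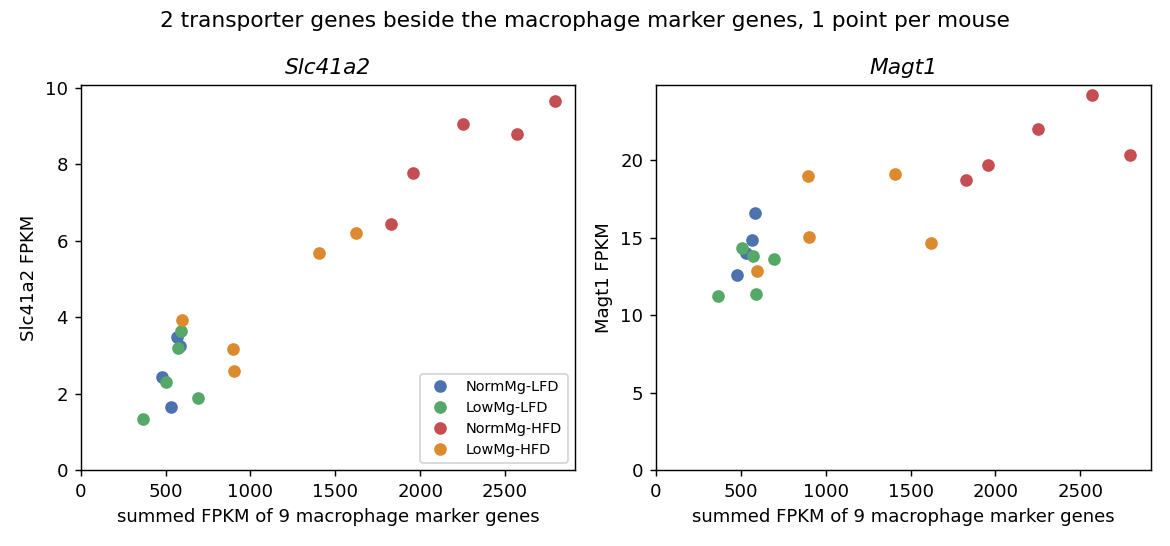
FPKM of Slc41a2 and of Magt1 (y axes) against the summed FPKM of 9 macrophage marker genes (x axes), with 1 point per mouse, coloured by diet group. All axes are linear and start at 0, and Lyz2 holds the largest part of the sum. The NormMg-HFD mice lie at the upper right (1830 to 2793 summed FPKM), the LFD mice at the lower left, and the LowMg-HFD mice between 595.5 and 1622 summed FPKM.

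The 5 genes whose pattern over the 19 mice was most like that of Slc41a2 were Cerk (Pearson correlation 0.965), P2ry6 (0.964), P4hb (0.962), Cd37 (0.958) and Olfr1459 (0.958), all computed on log2(FPKM + 1). Within groups the values were 0.861, 0.836, 0.835, 0.812 and 0.842. Cerk encodes ceramide kinase, P2ry6 a receptor for UDP, P4hb a protein disulphide isomerase and Cd37 a tetraspanin of leukocytes. For Cnnm2, the member with the highest level, the most similar genes were Gm5578 (0.815), Glb1l2 (0.812), Cav2 (0.812), Tns1 (0.805) and Tlr5 (0.775). Cav2 encodes a caveolin and Tns1 a protein of focal adhesions.

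Further genes with a reported role in Mg2+ transport were read from a list of 12, of which 8 could be tested. On normal Mg2+, 4 were higher with the HFD and 0 lower, with a median difference of 0.42 against 0.03 over all genes tested and the background of 19.2% higher given above. They were Nipa2 (0.80, limma, adjusted p = 0.00526), Nipal3 (0.49, limma, adjusted p = 0.0309), Tusc3 (0.83, limma, adjusted p = 0.000295) and Mmgt1 (0.55, limma, adjusted p = 0.000164). Tusc3 is the paralogue of Magt1 in the oligosaccharyltransferase, and it went from 18.7 ± 4.3 (SD, n = 4) to 33.5 ± 3.63 (SD, n = 5) FPKM. On low Mg2+ the HFD mice had higher Nipa2 (0.61), Nipal3 (0.58) and Tusc3 (0.68), 3 of 8, with none lower, where 8.24% of all genes tested were higher. Of these, Nipa2 and Nipal3 did not pass by median centring (limma, adjusted p = 0.0888 and 0.0816) or quantile normalization (limma, adjusted p = 0.0756 and 0.0973). Nipal3 also did not pass for fat on normal Mg2+ by median centring (limma, adjusted p = 0.0526) or without both mice with other-organ markers (limma, adjusted p = 0.1). For Mg2+ no gene of this list passed in limma on the HFD (2 at an unadjusted p under 0.05) or on the LFD (1 at that level), Tusc3 being at 28.7 ± 4.38 (SD, n = 5) FPKM in LowMg-HFD mice. At that unadjusted level lay 6.32% of all genes tested on the LFD, while the share on the HFD is not given here.

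The phosphatases of the PRL family (Ptp4a1 to Ptp4a3) bind CNNM proteins, and the GTPase Arl15 acts with them. All 4 genes were tested. Ptp4a1 had the highest mean of the 4 in every group, although its range overlapped that of Ptp4a2 in NormMg-HFD mice, and it was lower in NormMg-HFD (124.6 ± 15.8 FPKM, SD, n = 5) than in NormMg-LFD mice (197.9 ± 21.2 FPKM, SD, n = 4), a difference of -0.66 (limma, adjusted p = 0.000158). In LowMg-HFD mice (177 ± 21.7 FPKM, SD, n = 5) it exceeded the NormMg-HFD level by 0.50 (limma, adjusted p = 0.00543), and the difference between LowMg-HFD and LowMg-LFD mice was -0.34 (limma, adjusted p = 0.0425), which did not pass on the TPM scale (adjusted p = 0.0631) or without both mice with other-organ markers (adjusted p = 0.0945). Ptp4a2 differed in the opposite directions, with 0.40 for fat on normal Mg2+ (limma, adjusted p = 0.00178) and -0.31 for low Mg2+ on the HFD (limma, adjusted p = 0.0185), the latter not passing by quantile normalization (-0.21, adjusted p = 0.0868). Ptp4a3 was higher in LowMg-HFD than in LowMg-LFD mice (0.39, limma, adjusted p = 0.0259), but by 0.25 with an adjusted p of 0.196 under both median centring and quantile normalization, and Arl15 passed in no comparison. Cnnm2, Cnnm3 and Cnnm4, which these phosphatases bind, passed in none of the comparisons.

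The oligosaccharyltransferase, of which MAGT1 and TUSC3 are subunits, attaches sugar chains to new proteins. Its 10 other subunit genes were read as a single list, although not all of them share a complex with MAGT1. Of these genes, 4 were higher in NormMg-HFD than in NormMg-LFD mice and 0 lower, beside 19.2% higher over all genes tested. These were Ostc (0.84), Rpn1 (0.72), Stt3a (0.37) and Ost4 (0.35), and the median of the 10 was 0.31. Neither Stt3a nor Ost4 passed by median centring (limma, adjusted p = 0.0548 and 0.104) or quantile normalization (limma, adjusted p = 0.11 and 0.0826). In LowMg-HFD against NormMg-HFD mice 4 were lower and 0 higher, beside 8.95% lower over all genes tested, with Ostc at -0.69 (limma, adjusted p = 0.00395), Rpn1 at -0.53, Stt3a at -0.43 and Ddost at -0.25, and a median of -0.24. Ddost did not pass on the TPM scale, by quantile normalization or without both mice with other-organ markers (limma, adjusted p = 0.053, 0.0563 and 0.0519). Ostc was at 44.5 ± 7.96 (SD, n = 5) FPKM in NormMg-HFD and at 26.8 ± 1.38 (SD, n = 5) FPKM in LowMg-HFD mice. MAGT1 works beside the catalytic subunit STT3B, whose gene Stt3b passed in no comparison. On low Mg2+, Dad1 alone was higher with the HFD (0.40, limma, adjusted p = 0.0158), which became 0.26 by median centring (limma, adjusted p = 0.119), and for Mg2+ on the LFD 0 subunits passed in limma, with 0 at an unadjusted p under 0.05. All 22 calls in these 3 lists kept their sign under the 3 scalings tried and without both mice with other-organ markers. For fat on low Mg2+, 2 of 6 calls still passed by median centring and 3 of 6 by quantile normalization.

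**Figure D4:**
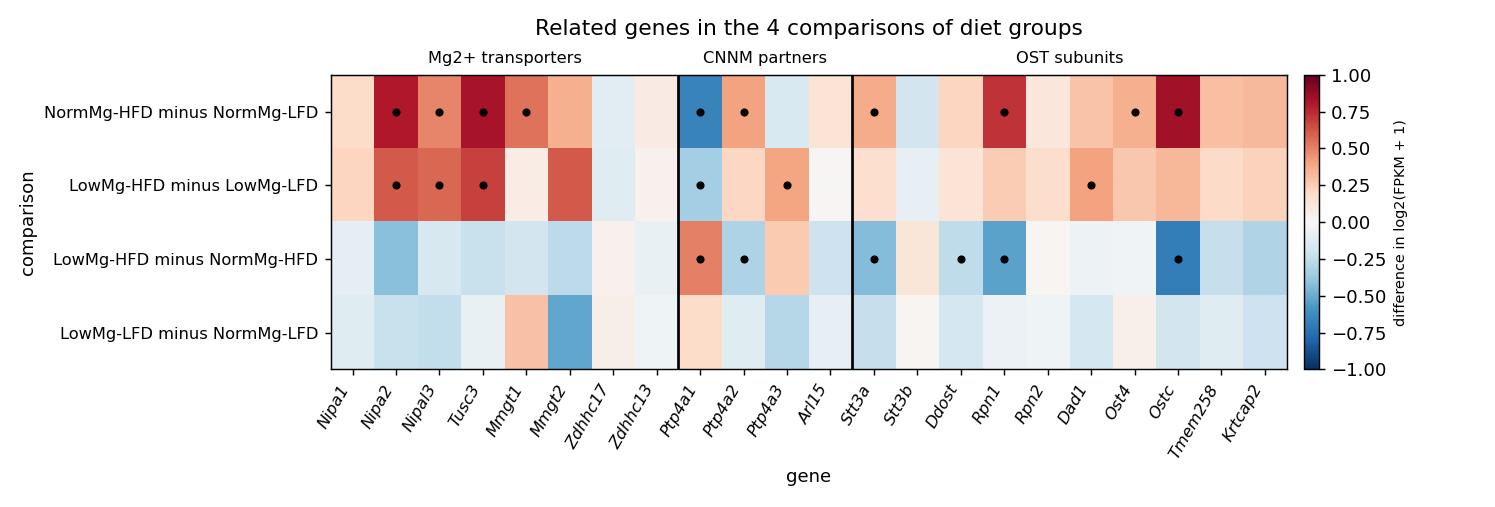
Differences in log2(FPKM + 1) (colour, red higher and blue lower in the first-named group) of the tested genes of 3 lists (x axis) in 4 comparisons (y axis). Black dots mark an adjusted p under 0.05 in limma. Dots lie in the upper 3 rows alone, for example Ostc at 0.84 for fat on normal Mg2+ and -0.69 for Mg2+ on the HFD, or Ptp4a1 at -0.66 and 0.50, and none lies in the comparison of Mg2+ on the LFD.

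Of 6 genes of Mg2+ handling in the kidney, 5 were in the table and 2 were expressed highly enough to be tested. Egf, the growth factor that acts on TRPM6 in the kidney, was at 2.63 ± 0.609 (SD, n = 4) FPKM in NormMg-LFD, 1.75 ± 0.987 (SD, n = 5) FPKM in LowMg-LFD, 0.916 ± 0.446 (SD, n = 5) FPKM in NormMg-HFD and 0.966 ± 0.523 (SD, n = 5) FPKM in LowMg-HFD mice. It met the filter on low values only through LFD-fed mice, so no test is given for it. Fxyd2, a regulator of the Na+/K+ pump, passed in no comparison.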

How the data were processed

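RNA from eWAT of 19 mice was sequenced in single-end reads of 50 bases. The authors aligned these reads to mouse transcripts (build GRCm38/mm10, HISAT and Bowtie2) and deposited an FPKM value for each gene and mouse from RSEM v1.2.31. A mapping summary gives, per the file headers, the total reads as counts and the percent mapped. Of 24238 genes, 1 was left out because a cell was not a number, and 26 symbols that had been stored as dates were set back to gene names. FPKM are not counts, so no count model was fitted, and precision rests on the spread between mice.

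Groups came from the sample labels. In limma 3.58.1 under R 4.3.3, log2(FPKM + 1) was fitted with a mean for each diet group and a variance trend over 13454 genes with a mean FPKM above 1 in a group and FPKM above 1 in at least 4 mice of it. The study's filter of 8, whose scale is not stated and which was read here as 8 FPKM, leaves 8336 genes and 5 of the 10 members. Tests were two-sided, with Benjamini-Hochberg adjustment over all genes tested and a threshold of 0.05. The fit was tested on simulated data. The genes named are the 10 members, the genes of 4 related lists that passed, and the 5 genes most similar to the member with the strongest difference over groups and to that with the highest mean, with Arl15, Stt3b and Fxyd2 added after their values were seen. Single genes of the marker lists (macrophage, stromal and adipocyte) are named beside their counts, likewise chosen with their values known. The members and lists were chosen with earlier results of these data known. Alternatives were a pseudocount of 0.1, the study's filter, no filter, 3 scalings (TPM, median centring, quantile normalization), no intensity trend, only the groups compared, a replicate block and each mouse left out in turn. Leaving out both mice with markers of another organ was added after seeing the data. Annotation was GENCODE M21 and promoter sequence RefSeq on GRCm38.p6. Plots were made in Python 3.11.15 with matplotlib 3.10.9.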

Additional observations from a re-analysis of the deposited data

Results flagged for a closer look

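In 40 groups of mice (10 genes in 4 diets) the highest and lowest value was set against the rest of its group by Dixon's ratio of the gap to the range, and 4 mice exceeded its 95% critical value, where chance alone gives about 1 in 20 groups. Slc41a1 was at 12.26 FPKM in LowMg-HFD replicate 4, the mouse with testis markers, against 7.19 to 8.29 FPKM in the rest of its group. Slc41a3 was at 7.4 FPKM in NormMg-HFD replicate 5, above 6.16 to 6.48 FPKM in the others. Cnnm2 was at 15.46 FPKM in LowMg-LFD replicate 1, below 20.26 to 21.22 FPKM in the others, and at 22.55 FPKM in LowMg-HFD replicate 5, above 18.94 to 19.91 FPKM. By the interaction term no member passed the threshold for a different response to Mg2+ on the HFD and the LFD.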

How the results depend on the processing

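Of the tests of single members under the alternatives, 1209 kept their direction and their side of the threshold, 42 changed direction, 8 passed and 17 no longer passed. The calls of Slc41a2 and Magt1 for fat on normal Mg2+ held under every alternative run in which each gene was tested, with adjusted p values of at most 0.00136 and 0.0208 in limma. The study's filter tested 5 members, Slc41a2 not among them, and called 1 member for fat on normal Mg2+ and 1 for Mg2+ on the HFD. For Mg2+ on the HFD, 1 member, Slc41a2, was also called with no filter, on the TPM scale, by median centring, by quantile normalization, with the replicate block, with only the groups compared and without both mice with markers of another organ, and 0 to 2 members were called when single mice were left out. There Magt1 did not pass (adjusted p = 0.0616 to 0.0985 in limma). For fat on low Mg2+, 1 member (Magt1) was called without both of these mice, and 0 to 1 when single mice were left out. The cause of these changes was not tested.

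By the rule used here replicate numbers did not pair the mice, since not every pair's correlation was above 0.1. Over 27 pairs of equal number, deviations from the group mean correlated at -0.141 to 0.383 (median 0.002), against -0.355 to 0.205 over 108 pairs of unequal number. The highest values were those of NormMg-LFD replicate 4 with LowMg-HFD replicate 4 (0.383) and LowMg-LFD replicate 4 (0.363), while NormMg-HFD replicate 4 was at -0.049 to 0.017 with these mice, and 5 of 19 mice correlated best with their own number. With the replicate block, Cnnm3 passed for fat on normal Mg2+ (-0.46, adjusted p = 0.0177 in limma) and Magt1 did not for Mg2+ on the HFD (-0.37, adjusted p = 0.0728), and no other call of a member changed.

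Differences that changed sign were small, and none of them passed. For fat on normal Mg2+, Mrs2 was -0.0227 by median centring, -0.0144 by quantile normalization and -0.0212 without both mice, with a range of -0.0212 to 0.127 when single mice were left out, where Cnnm4 ranged from -0.0373 to 0.364. For fat on low Mg2+, median centring and quantile normalization gave -0.105 and -0.0868 for Trpm7, -0.106 and -0.0836 for Cnnm2 and -0.0928 and -0.0906 for Mrs2, and quantile normalization gave -0.0151 for Cnnm4. With single mice left out Trpm7 ranged from -0.0736 to 0.141 and Cnnm2 from -0.0414 to 0.0668. For Mg2+ on the LFD, Slc41a2 was 0.0357 by quantile normalization (-0.255 to 0.0286 with single mice left out), Cnnm2 was -0.0137 on the TPM scale (-0.0526 to 0.093) and Cnnm4 ranged from -0.355 to 0.0462. The interaction of Cnnm4 was -0.0332 with a pseudocount of 0.1, -0.0384 by median centring, -0.13 by quantile normalization, -0.0409 without both mice and -0.216 to 0.186 with single mice left out. That of Mrs2 was -0.0701 and -0.0762 by the same scalings and -0.0744 to 0.0738 with single mice left out.

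Scaling moved the balance of calls over all genes. The share of calls that were higher went from 64% to 51.7% (median centring) and 50.1% (quantile) for fat on normal Mg2+, from 78.9% to 44.9% and 50% for fat on low Mg2+, and from 28.3% to 33.1% and 40.2% for Mg2+ on the HFD. Interaction calls went from 48 genes to 123 and 203 by these scalings and 104 with the study's filter. They went to 15 with a pseudocount of 0.1, 16 on the TPM scale, 2 with no filter, and 0 with no intensity trend, with the replicate block and without both mice, and to 0 to 451 with single mice left out. Levels on the TPM scale are higher than the FPKM throughout, since the deposited values sum to 516330.2 to 546780.4 per mouse. With 4 or 5 mice a group, intervals of the members leave room for the changes given beside them, and Trpm6 is limited by its few reads.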
